A study of Mus musculus with 6 samples.

Results

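The tumor necrosis factor (TNF) family holds secreted and membrane-bound ligands and the cell-surface receptors they bind. Members were taken from the deposited gene tables by symbol (Tnf, Lta, Ltb, Ltbr, all numbered Tnfsf and Tnfrsf genes, Fas, Fasl, Cd40, Cd40lg, Cd27 and Cd70), which gave 41 of 23420 genes, 17 ligands and 24 receptors. Most ligands are trimers that gather receptors on the target cell. Some receptors carry a death domain and can start cell death, others bind TRAF adaptors and switch on the NF-kB transcription factors, and a few are decoys that hold the ligand without signaling. In inflamed tissue, macrophages, neutrophils and lymphocytes are well-known sources of TNF, and endothelial cells and fibroblasts answer it with adhesion molecules and chemokines.

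The study injected talc, a mineral powder suspended in saline, into the pericardial cavity of C57BL/6 male mice aged 8 weeks, which leads to fibrous adhesions between heart and pericardium. Heart tissue was taken at day 0 and at days 3 and 7 after induction, and adhesion tissue at days 1, 3 and 7. All 6 labels carry the same talc protocol, that of heart at day 0 included, and whether the mice of day 0 had been injected was not stated. For the earliest adhesion sample the title and the stage say day 1 while the source field says day 0, and it is called day 1 here. Total RNA depleted of ribosomal RNA was sequenced, with 1 library in each of the 6 conditions, and the number of mice behind each library was not stated.

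The libraries held between 1615922 and 1844565 reads in genes, so that 1 read corresponded to 0.542 to 0.619 CPM, the reads of a gene scaled to an equal library total. With 1 library per condition there was no test across animals. Ratios are given on the scale of the deposited values with exact 95% intervals of the read counts, which cover counting error only, and a gene is called higher or lower here when its ratio exceeded 3-fold after a pseudocount of 1. PCR copies were not marked by molecular identifiers, so that intervals may be too narrow. The 10 cardiomyocyte markers summed to 62165 to 75584 CPM in the heart libraries, all 10 being read. In adhesion tissue the same sum was 5922, 240 and 3624 CPM at days 1, 3 and 7. The 9 fibroblast markers were at 2524, 28685 and 45596 CPM in adhesion tissue. The day 1 adhesion library stood apart in several marker lists, with skeletal muscle markers at 8198 CPM (16.1 and 2701 CPM at days 3 and 7), neutrophil markers at 2457 CPM (708 and 621 CPM) and thymocyte markers at 203 CPM (32.2 and 19.0 CPM). Airway and lung markers were at 490 and 610 CPM at days 1 and 7 and at 17.3 CPM at day 3. Heart at day 7 also stood apart from the earlier heart libraries, with airway and lung markers at 205 CPM (6.42 and 6.63 CPM at days 0 and 3) and thymocyte markers at 19.2 CPM (2.92 and 4.42 CPM). Every ratio against day 1 rests on that library, so the ratio of day 7 to day 3 is given beside those of most members described. In adhesion tissue that ratio has a shift of its own. All 10 cardiomyocyte, all 10 skeletal muscle and 4 of 6 airway and lung markers were above 3-fold higher at day 7 than at day 3. Their part in the ratios of members was not tested. Less RNA per cell and fewer cells of a type cannot be told apart in these tissue samples.

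Receptors had far more reads than ligands in every library, without correction for exon length. Ligand reads summed to 54, 85 and 95 in heart (days 0, 3 and 7), and adhesion tissue had 316, 189 and 258 (days 1, 3 and 7). Receptor reads summed to 361, 627 and 622 in heart, and adhesion tissue had 1929, 1684 and 1921. In CPM the receptors of heart stood at 211, 346 and 342, those of adhesion tissue at 1078, 1042 and 1041. The adhesion libraries were thus above all heart libraries for both roles, and the receptor sum hardly differed among them.

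**Figure D1:**
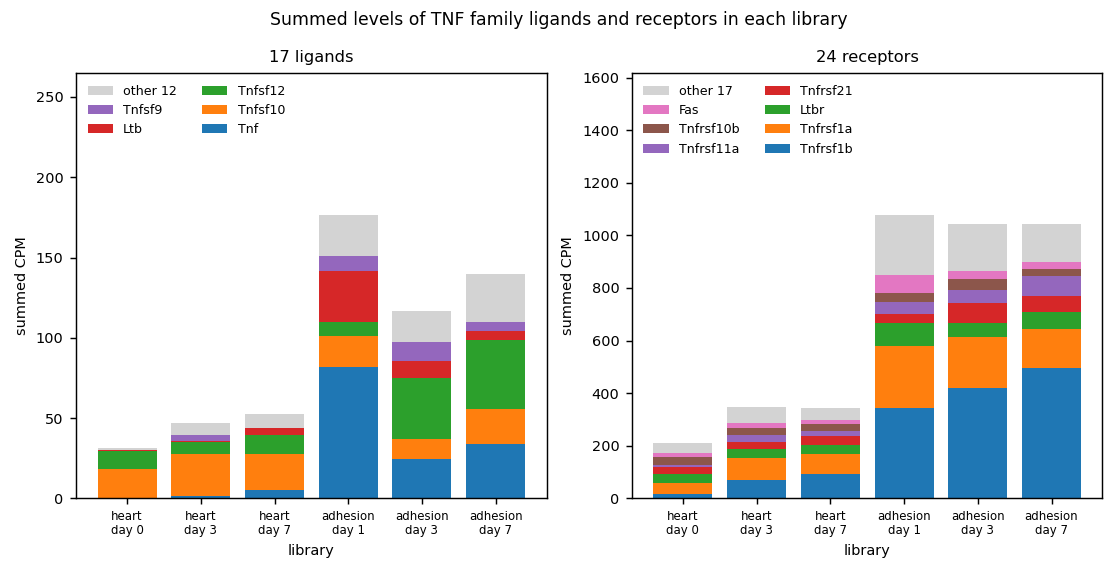
Stacked bars of summed CPM (vertical axis, from 0) in each of the 6 libraries (horizontal axis) for the 17 ligands on the left and the 24 receptors on the right, with the most read genes in color and the others in grey. Receptors summed to 211 to 346 CPM in heart and to 1041 to 1078 CPM in adhesion tissue, while the ligand share held by Tnf was largest in the adhesion library of day 1.

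Which members carried these sums differed by tissue and day. The most read ligand was Tnfsf10 in all 3 heart libraries, with 57.4%, 55.3% and 43.2% of ligand reads. In adhesion tissue it was Tnf at day 1 with 46.2% of ligand reads, and Tnfsf12 at days 3 and 7 with 32.3% and 30.6%. Reads also grow with exon length, which is 4944 bases for Tnfsf10 and 1694 for Tnfsf12. Per kilobase of exon, Tnfsf12 ranked first among heart ligands at days 0 and 7, at 6.89 and 7.14 CPM. Tnfsf10 was at 3.66 and 4.56 CPM on those days and ranked first at day 3, at 5.25 CPM. The intervals of Tnfsf10 and Tnfsf12 overlapped in each heart library. The leading ligands of adhesion tissue were the same by this measure. Tnfsf10 encodes TRAIL, a ligand of death receptors, and Tnfsf12 encodes TWEAK, a ligand that acts on fibroblasts, endothelium and injured muscle. The most read receptor was Tnfrsf1a in heart at days 0 and 3. It was Tnfrsf1b in heart at day 7 and in all 3 adhesion libraries, where it held 31.9%, 40.3% and 47.7% of receptor reads. Per kilobase of exon, Tnfrsf1a ranked first among receptors in every library except adhesion tissue at day 7. There Tnfrsf1b was at 101 CPM and Tnfrsf1a at 68.4 CPM. In adhesion tissue at day 3 the intervals of these receptors overlapped.

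Coverage was thin for many members. Of the 17 ligands, 8 reached 10 reads in some library, 8 were read without reaching 10, and Cd70 was never read, which allows at most 1.63 to 1.86 CPM in each library (3 reads). Of the 24 receptors, 20 reached 10 reads and 4 did not. In heart, 2 ligands and 13 receptors reached 10 reads, against 8 ligands and 19 receptors in adhesion tissue. Reads in all 6 libraries were found for 4 ligands and 17 receptors.

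**Figure D2:**
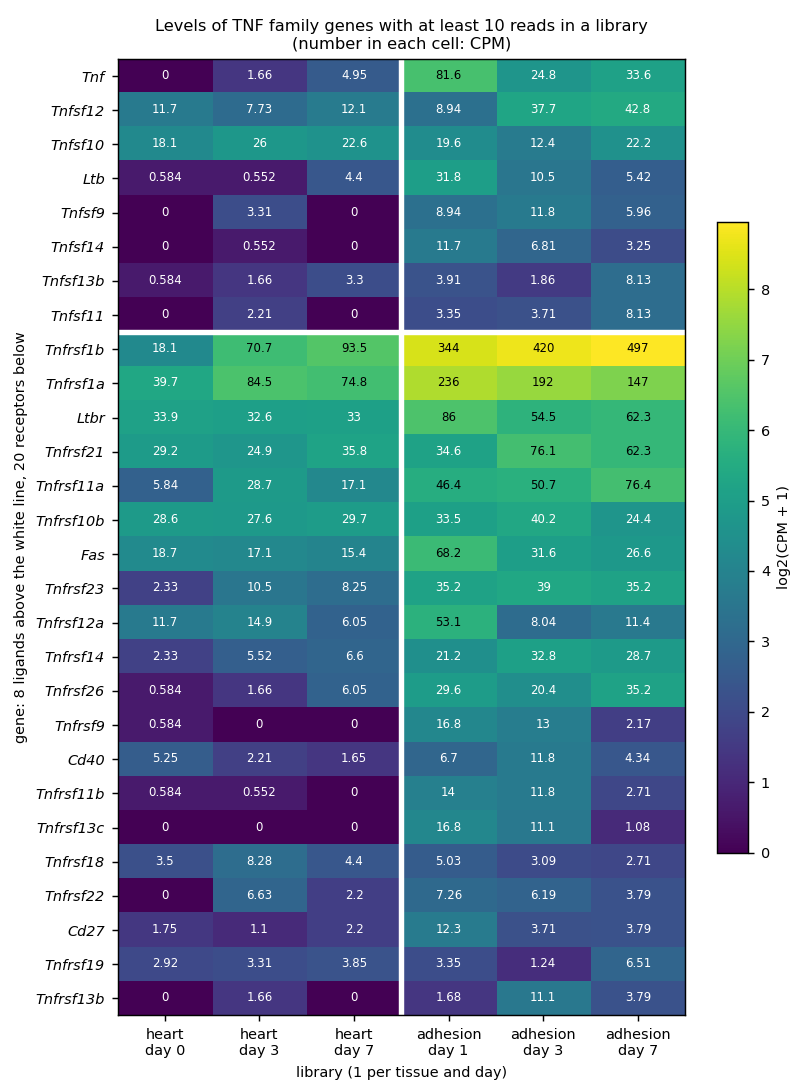
Heat map of the 8 ligands and 20 receptors with at least 10 reads in some library (rows) in the 6 libraries (columns); the color is log2(CPM + 1) and the number in each cell is the CPM. The brightest row is Tnfrsf1b, from 18.1 CPM in heart at day 0 to 497 CPM in adhesion tissue at day 7.

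In heart at day 3 against day 0, 11 of the 34 members with a read in either library were called higher (32.4%, against 6.66% of all 16145 genes read), and 0 were called lower (1.77% of all genes). Of the 11, 6 were ligands that had 2 to 6 reads at day 3 and none at day 0. Only 4, the receptors Tnfrsf11a, Tnfrsf1b, Tnfrsf22 and Tnfrsf23, also had an interval that excluded 1 (11.8%, against 3.31% of all genes), and again 0 were lower (0.545% of all genes). The median log2 ratio of the 34 members was 0.88 with the pseudocount, against -0.02 over all genes read, but it was 0.00 when members at 0 reads in 1 library were set to a floor of 3 reads. Over the 10 members with at least 30 reads in both libraries together it was -0.02, against -0.06 over all such genes. The higher median of the family in heart at day 3 thus came from members with few reads.

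In heart at day 7 against day 0, 8 of 31 members were called higher (25.8%, against 6.84% of 16142 genes) and 1, Tnfrsf25 with 7 and 2 reads, was called lower (3.23%, against 1.52%). With an interval that excluded 1 as well, Tnf, Tnfrsf1b and Tnfrsf26 remained (9.68%, against 3.17%), and 0 members were lower (0.396% of all genes). The median log2 ratio was 0.19 with the pseudocount and 0.17 with the floor, against -0.00 over all genes. The summed receptor reads were 1.46-fold higher at day 3 (95% interval 1.28 to 1.66) and 1.49-fold higher at day 7 (1.31 to 1.70). Without Tnfrsf1b these ratios were 1.27 (1.10 to 1.46) and 1.19 (1.03 to 1.37), so that 1 gene carried much of the sum. For the ligands the summed ratio was 1.32 (0.927 to 1.89) at day 3 and 1.52 (1.08 to 2.17) at day 7, or 1.38 (0.971 to 1.98) without Tnf.

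In adhesion tissue at day 3 against day 1, 2 of 38 members, Tnfsf12 and Tnfrsf13b, were called higher (5.26%, against 3.78% of 16946 genes) and 2, Tnf and Tnfrsf12a, were called lower (5.26%, against 6.7%). All 4 also had intervals that excluded 1, with 3.0% of all genes higher and 4.64% lower by this rule. These shares are near those of all genes. At day 7 against day 1, 3 of 39 members were called higher (7.69%, against 5.13% of 17119 genes) and 8 were called lower (20.5%, against 4.88%). With the interval as well, Tnfsf12 was higher (2.56%, against 4.11%), and Ltb, Tnfsf14, Tnfrsf11b, Tnfrsf12a, Tnfrsf13c and Tnfrsf9 were lower (15.4%, against 3.47%). The median log2 ratio of the family was -0.29 at day 3 and -0.41 at day 7, against -0.10 and -0.05 over all genes, and -0.26 and -0.01 with members at 0 set to the floor. At day 7 the ligands had a median of 0.21 (0.00 with the floor) and the receptors one of -0.42 (-0.43 with the floor). Over the 18 members with at least 30 reads it was -0.42 at day 7, against -0.08 over all such genes.

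The summed ligand reads of adhesion tissue gave ratios to day 1 of 0.668 at day 3 (0.555 to 0.802) and 0.811 at day 7 (0.686 to 0.960). Without Tnf the ratios to day 1 were 0.978 (0.780 to 1.23) and 1.15 (0.928 to 1.42), so that the lower ligand sum went with Tnf. The receptor sum gave ratios of 0.974 (0.912 to 1.04) and 0.990 (0.929 to 1.05). Without Tnfrsf1b these were 0.854 (0.786 to 0.928) and 0.760 (0.699 to 0.826), so that the other receptors together were lower than at day 1.

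**Figure D3:**
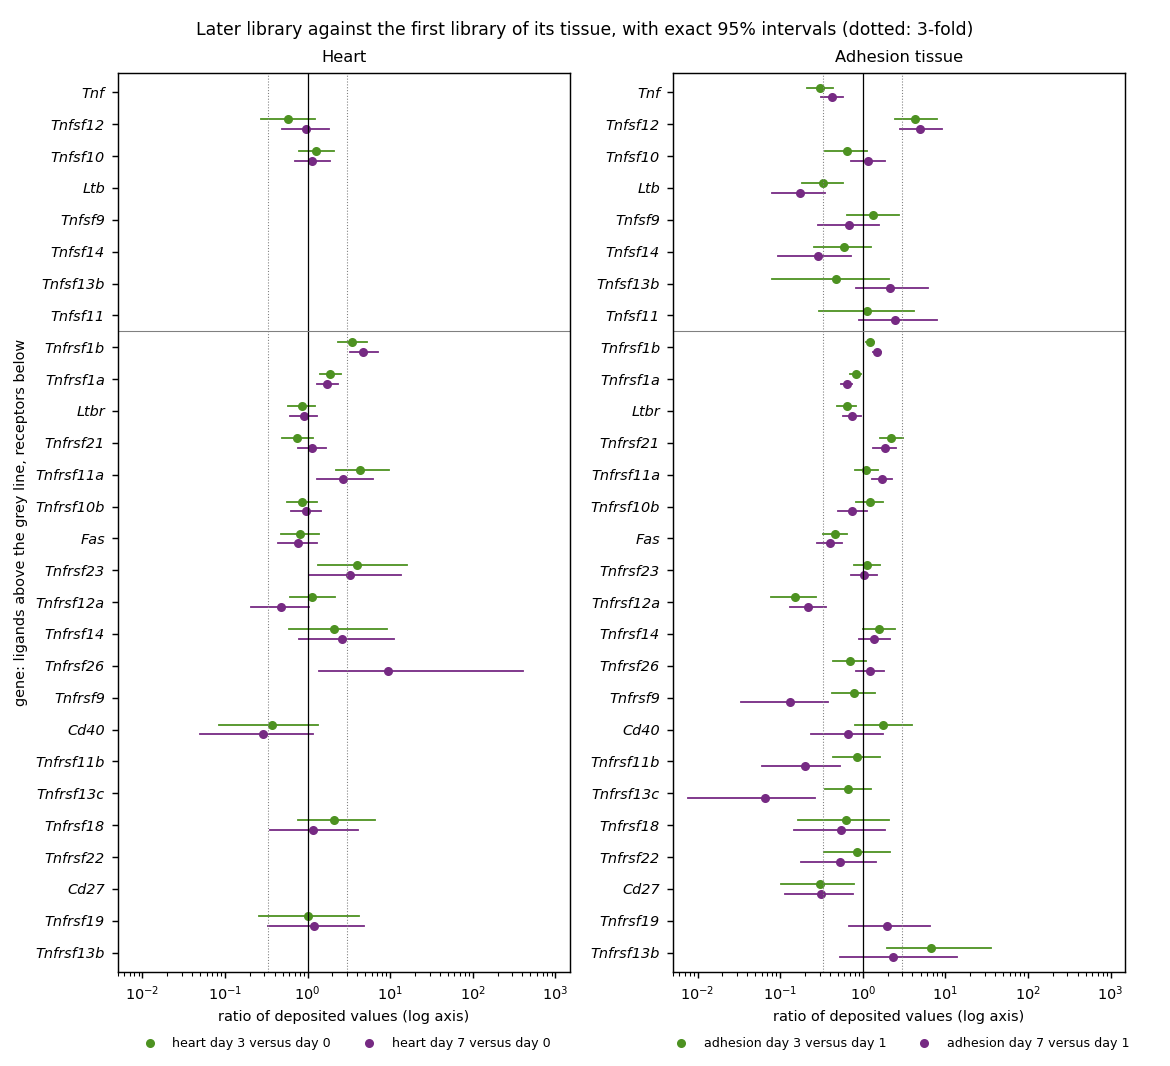
Ratio of deposited values of the later library to the first library of its tissue (horizontal log axis) for 8 ligands and 20 receptors (rows), heart on the left and adhesion tissue on the right, green for day 3 and purple for day 7; lines are exact 95% intervals, dotted lines mark 3-fold, and ratios from fewer than 10 reads in all, or with a library at 0, are left out. Tnfrsf1b lies right of 1 in all 4 ratios, while Tnf, Ltb, Fas, Cd27 and Tnfrsf12a lie left of 1 in adhesion tissue.

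Tnf, the founding ligand of the family and an early product of activated macrophages and neutrophils (chr17:35199391-35201996, mm10, reverse strand), was the ligand with the most reads. In heart it had 0, 3 and 9 reads (0, 1.66 and 4.95 CPM) at days 0, 3 and 7. Its reads in adhesion tissue were 146, 40 and 62 (81.6, 24.8 and 33.6 CPM) at days 1, 3 and 7. Heart was low throughout, and the adhesion library of day 1 was the highest of the 6. Against day 1, Tnf was 3.27-fold lower at day 3 (2.29 to 4.76) and 2.37-fold lower at day 7 (1.75 to 3.24), and day 7 over day 3 gave a ratio of 1.38 (0.913 to 2.11). In heart, day 7 was 2.60-fold higher than day 0 when day 0 was set to 3 reads, and the exact interval began at 1.71. Adhesion tissue exceeded heart by 14.9-fold at day 3 (4.76 to 75.5) and by 6.79-fold at day 7 (3.36 to 15.5). The neutrophil markers, of which 8 of 9 were read at day 1 with Elane at 0, were also highest in the adhesion library of day 1, and their part in the level of Tnf was not tested.

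Tnf lies between Ltb and Lta, with gaps of 3085 and 1168 bases. Ltb encodes lymphotoxin beta, a membrane ligand that pairs with lymphotoxin alpha and binds the receptor encoded by Ltbr. Ltb (chr17:35194507-35196305, forward strand) had 1, 1 and 8 reads in heart and 57, 17 and 10 in adhesion tissue, and the thymocyte and airway markers given above for heart at day 7 were high in the same library as its 8 reads. Their part in these reads was not tested. Its ratio to day 1 in adhesion tissue was 0.333 at day 3 (0.182 to 0.581), and it was 5.74-fold lower at day 7 (2.90 to 12.6). Day 7 over day 3 gave 0.524 (0.214 to 1.21). At day 7 the ratio of adhesion tissue to heart was 1.23 (0.438 to 3.59). Lta, which encodes lymphotoxin alpha, had at most 3 reads in any library. The 10 T cell markers summed to 188, 35.3 and 23.3 CPM in adhesion tissue at days 1, 3 and 7, and the 6 thymocyte markers, led by Rag1 with 240 reads at day 1, went the same way. Their part in the level of Ltb was not tested.

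The sequences upstream of these genes are shown because Tnf and Ltb were lower together in the later adhesion libraries and NF-kB is a known regulator of both. RefSeq windows (GRCm38.p6) from 250 bases before to 50 bases after a gene start were found for 31 of the 41 members and searched on both strands for the 10-letter kappa B consensus. Capitals mark matches. The window of Ltb (chr17:35194257-35194556, forward strand) holds 1 match starting at position -87, that of Tnf (chr17:35201958-35202257, reverse strand) holds none, and a window of Tnfrsf9 (chr4:150927749-150928048, forward strand) holds 2 overlapping matches.
Ltb: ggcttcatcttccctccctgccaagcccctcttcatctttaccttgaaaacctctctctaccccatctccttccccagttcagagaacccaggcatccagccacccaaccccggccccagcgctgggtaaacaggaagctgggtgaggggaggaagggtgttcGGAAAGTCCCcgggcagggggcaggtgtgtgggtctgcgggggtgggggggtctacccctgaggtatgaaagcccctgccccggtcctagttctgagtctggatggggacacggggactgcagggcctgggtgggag
Tnf: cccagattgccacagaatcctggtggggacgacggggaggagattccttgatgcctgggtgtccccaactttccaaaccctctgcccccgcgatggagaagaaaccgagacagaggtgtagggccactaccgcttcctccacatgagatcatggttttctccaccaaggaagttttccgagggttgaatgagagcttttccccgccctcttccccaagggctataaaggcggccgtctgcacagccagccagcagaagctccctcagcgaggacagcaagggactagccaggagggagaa
Tnfrsf9: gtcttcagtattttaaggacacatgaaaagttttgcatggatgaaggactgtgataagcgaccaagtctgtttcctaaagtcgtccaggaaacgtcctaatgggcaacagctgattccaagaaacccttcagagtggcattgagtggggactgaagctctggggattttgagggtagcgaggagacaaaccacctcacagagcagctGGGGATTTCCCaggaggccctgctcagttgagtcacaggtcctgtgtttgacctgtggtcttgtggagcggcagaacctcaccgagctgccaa
Matches were also found for Tnfrsf25 and Tnfrsf8, so that 4 of 31 members (12.9%) had one, against 9.55% of 27025 genes with a window. A match is a stretch of letters and not a measured site, and the window of Tnf says nothing of elements farther away.

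The receptors of TNF were the most read of the family in adhesion tissue and in heart at days 3 and 7, and took different courses. In heart at day 0, Tnfrsf1b had fewer reads than Ltbr, Tnfrsf21, Tnfrsf10b and Fas. Tnfrsf1a (chr6:125349723-125362483, forward strand) encodes the death-domain receptor 1 of TNF, found on most cell types, and Tnfrsf1b (chr4:145212368-145246870, reverse strand) encodes receptor 2, which lacks a death domain and is richest on leukocytes and endothelium. Tnfrsf1a had 68, 153 and 136 reads in heart and 423, 310 and 272 in adhesion tissue. Tnfrsf1b had 31, 128 and 170 reads in heart and 616, 679 and 917 in adhesion tissue. Both were lowest in heart at day 0, but in adhesion tissue Tnfrsf1a was highest at day 1 and Tnfrsf1b at day 7.

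In heart, Tnfrsf1b was 3.46-fold higher at day 3 (2.32 to 5.30) and 4.75-fold higher at day 7 (3.23 to 7.21), and Tnfrsf1a 1.89-fold (1.41 to 2.55) and 1.73-fold higher (1.29 to 2.35). In adhesion tissue, Tnfrsf1b was 1.23-fold higher at day 3 (1.10 to 1.37) and 1.48-fold higher at day 7 (1.33 to 1.64). There Tnfrsf1a was 1.22-fold lower at day 3 (1.05 to 1.42), an interval that included 1 with TMM scaling (ratio 0.876, 0.754 to 1.02), and 1.56-fold lower at day 7 (1.34 to 1.83). The intervals of day 7 over day 3 in adhesion tissue also excluded 1, at 1.20 (1.09 to 1.33) for Tnfrsf1b and 0.781 (0.661 to 0.922) for Tnfrsf1a, so that the courses without day 1 ran apart too.

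Per exon length, as CPM per kilobase of exon (RPKM), the level of Tnfrsf1a was above that of Tnfrsf1b in heart at day 0, at 18.4 (14.3 to 23.4) and 3.68 (2.50 to 5.23). In adhesion tissue the levels were 110 (99.4 to 121) and 70.0 RPKM (64.6 to 75.8) at day 1, 89.0 and 85.5 RPKM at day 3 with intervals that overlapped, and 68.4 (60.5 to 77.1) and 101 RPKM (94.7 to 108) at day 7. The order of the receptors was thus turned around between day 1 and day 7. The 12 macrophage markers of heart summed to 448, 1383 and 1694 CPM, those of adhesion tissue to 2752, 7046 and 7027 CPM, all 12 being read in every library, and the 10 endothelial markers to 1388 to 1430 CPM in heart and to 664, 730 and 881 CPM in adhesion tissue. Their part in the levels of Tnfrsf1b was not tested.

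**Figure D4:**
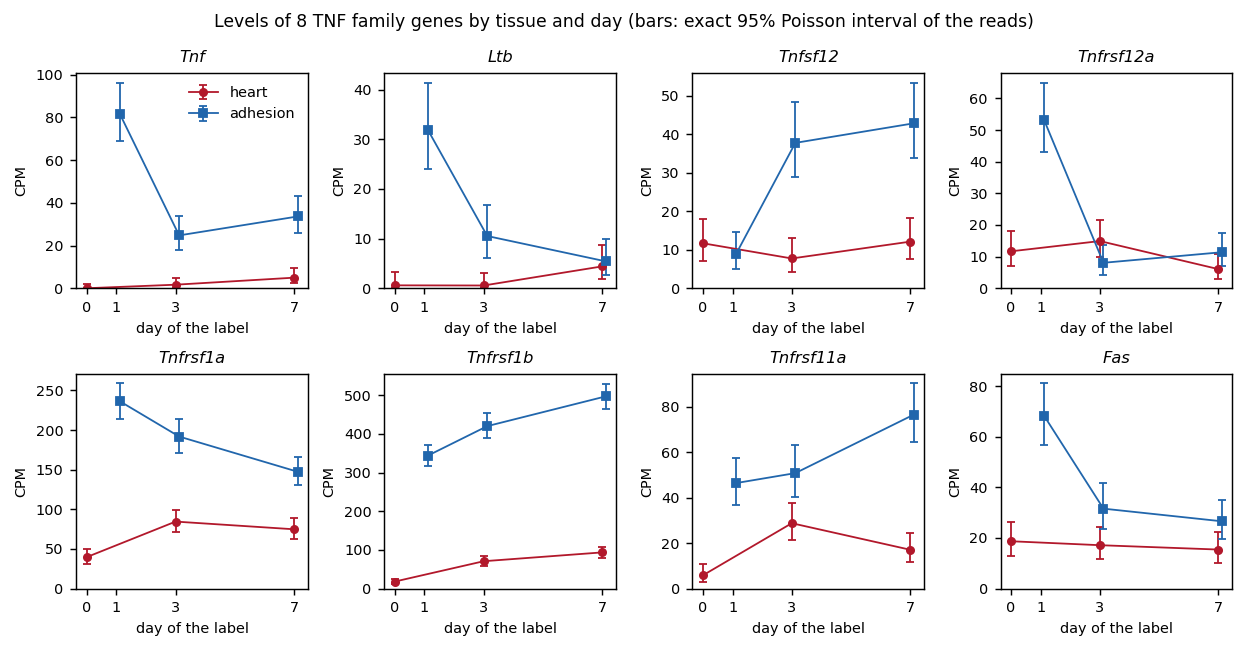
CPM (vertical axes, from 0) of 8 genes by the day of the label (horizontal axes), red circles for heart and blue squares for adhesion tissue, with exact 95% Poisson intervals of the reads; each point is 1 library. Tnf, Ltb, Tnfrsf12a and Fas are highest in adhesion tissue at day 1, while Tnfsf12, Tnfrsf1b and Tnfrsf11a are highest there at day 7.

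The ligand TWEAK and its receptor lay on opposite sides of the day 1 level in adhesion tissue. Tnfsf12 had 20, 14 and 22 reads in heart and 16, 61 and 79 in adhesion tissue. Tnfrsf12a, the TWEAK receptor known as Fn14, which is switched on by injury in muscle and fibroblasts (chr17:23675445-23677449, reverse strand), had 20, 27 and 11 reads in heart and 95, 13 and 21 in adhesion tissue. Tnfsf12 was 4.26-fold higher at day 3 than at day 1 (2.42 to 7.91) and 4.91-fold higher at day 7 (2.84 to 9.0). Tnfrsf12a was 6.55-fold lower at day 3 (3.65 to 12.7) and 4.55-fold lower at day 7 (2.82 to 7.69). Between days 3 and 7 neither interval excluded 1, at 1.15 (0.815 to 1.64) for the ligand and 1.44 (0.687 to 3.13) for the receptor. The contrast therefore rests on the day 1 library, in which skeletal muscle markers were also highest, and the part of muscle in the level of Tnfrsf12a was not tested. In heart Tnfrsf12a was 2.37-fold lower at day 7 than at day 3 (1.14 to 5.30). Tnfsf12 shares 57.7% of its exon bases with a read-through transcript on the same strand to which no read was assigned, and Tnfrsf12a 8.29% with Hcfc1r1 on the opposite strand. How reads in shared bases were assigned was not stated, so both values are uncertain.

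Among the other death receptors and their ligands, Fas was lower in the later adhesion libraries. Fas, whose product starts apoptosis when bound by Fas ligand, had 32, 31 and 28 reads in heart and 122, 51 and 49 in adhesion tissue. It was 2.14-fold lower at day 3 than at day 1 (1.53 to 3.03) and 2.51-fold lower at day 7 (1.78 to 3.57), with a ratio of 0.855 (0.566 to 1.29) between days 7 and 3. Fasl had no read in heart and at most 3 in adhesion tissue. Tnfrsf10b, the death receptor for TRAIL, had 49, 50 and 54 reads in heart and 60, 65 and 45 in adhesion tissue, and its intervals against the first library included 1 in both tissues, while in adhesion tissue day 7 was 1.62-fold lower than day 3 (1.09 to 2.43). Tnfsf10 had 31, 47 and 41 reads in heart and 35, 20 and 41 in adhesion tissue, and was the 1 ligand that was lower in adhesion tissue than in heart at day 3, by 2.10-fold (1.22 to 3.74), whereas at day 7 the ratio was 0.986 (0.624 to 1.56). Within adhesion tissue it was 1.83-fold higher at day 7 than at day 3 (1.05 to 3.29). Tnfrsf21, which encodes a death-domain receptor best known from neurons and lymphocytes, had 50, 45 and 65 reads in heart and 62, 123 and 115 in adhesion tissue. It was 2.21-fold higher at day 3 (1.62 to 3.06) and 1.84-fold higher at day 7 (1.34 to 2.55) than at day 1 in adhesion tissue, with 0.832 (0.640 to 1.08) for day 7 over day 3. Tnfrsf25, the receptor of the ligand encoded by Tnfsf15, did not exceed 7 reads.

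Next to Tnfrsf10b, the mouse has decoy receptors for TRAIL, encoded by Tnfrsf22 and Tnfrsf23, in a cluster on chromosome 7 with Tnfrsf26. Tnfrsf23 had 4, 19 and 15 reads in heart and 63, 63 and 65 in adhesion tissue, and Tnfrsf26 had 1, 3 and 11 and 53, 33 and 65. Tnfrsf22 had 0, 12 and 4 reads in heart and 13, 10 and 7 in adhesion tissue. In heart Tnfrsf23 was 3.98-fold higher at day 3 (1.32 to 16.1) and 3.25-fold higher at day 7 (1.04 to 13.5), and Tnfrsf26 9.53-fold higher at day 7 (1.39 to 410). Tnfrsf22 was 3.35-fold higher at day 3 with day 0 set to 3 reads, and its exact interval began at 2.33. In adhesion tissue the intervals of all 3 genes against day 1 included 1, and Tnfrsf26 was 1.75-fold higher at day 7 than at day 3 (1.14 to 2.75). Of the 50-base words in the transcripts of Tnfrsf22 and Tnfrsf23, 17.3% and 18% are shared between these genes, so that their reads may have been split and the single values are uncertain.

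Receptors and ligands of the RANK system, which drives the making of osteoclasts from macrophage precursors, were dominated by the receptor. Tnfrsf11a, which encodes RANK (chr1:105780723-105847981, forward strand), had 10, 52 and 31 reads in heart and 83, 82 and 141 in adhesion tissue. Heart at day 0 was the lowest library and adhesion tissue at day 7 the highest. In heart it was 4.36-fold higher at day 3 (2.19 to 9.62) and 2.69-fold higher at day 7 (1.28 to 6.14), and in adhesion tissue 1.69-fold higher at day 7 than at day 1 (1.28 to 2.24) and 1.53-fold higher than at day 3 (1.16 to 2.04). Its ligand RANKL, from Tnfsf11, had 0, 4 and 0 reads in heart and 6, 6 and 15 in adhesion tissue, and no interval against the first library excluded 1. Tnfrsf11b encodes osteoprotegerin, a soluble decoy for RANKL, and had 1, 1 and 0 reads in heart and 25, 19 and 5 in adhesion tissue. It was 5.03-fold lower at day 7 than at day 1 (1.89 to 16.8) and 4.27-fold lower than at day 3 (1.54 to 14.6), so that receptor and decoy went opposite ways in adhesion tissue.

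Of 10 genes known to be switched on by RANK in osteoclasts, 4 of 9 read members were called higher in adhesion tissue at day 3 (3.78% of all genes) and 7 of 10 at day 7 (5.13% of all genes), all with intervals that excluded 1, with none lower. The heart comparisons had 3 of 8 (day 3) and 5 of 9 (day 7) called higher, against 6.66% and 6.84% of all genes. Ctsk, the collagen-cleaving protease cathepsin K, had 10, 134 and 1367 reads in adhesion tissue at days 1, 3 and 7 and was 136-fold higher at day 7 than at day 1 (73.6 to 284). Atp6v0d2, a proton pump subunit, had 13, 87 and 502 reads and was 38.4-fold higher (22.2 to 72.6). Several of these genes are also expressed by macrophages and fibroblasts, so the list does not stand for osteoclasts alone, and Calcr, which encodes the calcitonin receptor of mature osteoclasts, was at 0 in 5 of the libraries. Mmp9, which also stands in the list of TNF-induced genes, had 3, 63 and 81 reads in heart and 669, 345 and 735 in adhesion tissue. In heart it was 17.6-fold higher at day 3 (5.75 to 87.6). The study reported that the MMP9-positive cells were neutrophils.

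Among the receptors of B cells, Tnfrsf13c, the receptor of BAFF on mature B cells, had no read in heart and 30, 18 and 2 reads in adhesion tissue, and was 15.1-fold lower at day 7 than at day 1 (3.83 to 130) and 10.1-fold lower than at day 3 (2.42 to 89.8). Tnfrsf13b, the receptor TACI of B cells, had 0, 3 and 0 reads in heart and 3, 18 and 7 in adhesion tissue, and was 6.70-fold higher at day 3 than at day 1 (1.96 to 35.5) and 2.89-fold lower at day 7 than at day 3 (1.15 to 8.18). Tnfrsf17, a receptor of plasma cells, had 1 read in all. The 8 B cell markers summed to 197, 189 and 41.2 CPM in adhesion tissue and to 15.9 to 28.2 CPM in heart, where Ms4a1 and Pax5 were at 0 at day 7. Tnfrsf13c was high and low with them, and their part was not tested. Tnfsf13b, which encodes BAFF itself, had 1, 3 and 6 reads in heart and 7, 3 and 15 in adhesion tissue, and was 4.45-fold higher at day 7 than at day 3 (1.26 to 24.0).

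Cd27 and Tnfrsf9 encode costimulatory receptors of T cells. Cd27 had 3, 2 and 4 reads in heart and 22, 6 and 7 in adhesion tissue, and was 3.28-fold lower at day 3 (1.29 to 9.90) and 3.16-fold lower at day 7 (1.30 to 8.76) than at day 1, with 1.04 (0.299 to 3.74) for day 7 over day 3. Tnfrsf9 had 1, 0 and 0 reads in heart and 30, 21 and 4 in adhesion tissue, and was 7.55-fold lower at day 7 than at day 1 (2.66 to 29.5) and 5.90-fold lower than at day 3 (1.99 to 23.6). Cd27 thus differed only against the day 1 library, whereas Tnfrsf9 was lower at day 7 against both earlier ones. Its ligand Tnfsf9 had 0, 6 and 0 reads in heart and 16, 19 and 11 in adhesion tissue. Cd40, the receptor through which T cells license B cells and dendritic cells, had 9, 4 and 3 reads in heart and 12, 19 and 8 in adhesion tissue, and was 2.67-fold lower at day 7 than at day 3 (1.12 to 7.04). Tnfrsf18, a receptor of regulatory T cells, had 6, 15 and 8 reads in heart and 9, 5 and 5 in adhesion tissue, with intervals that included 1.

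The lymphotoxin beta receptor, from Ltbr, had 58, 59 and 60 reads in heart and 154, 88 and 115 in adhesion tissue. Its heart level was even over the days, and in adhesion tissue it was 1.57-fold lower at day 3 (1.20 to 2.06) and 1.35-fold lower at day 7 (1.05 to 1.73) than at day 1. The latter interval reached 1 with TMM scaling (ratio 0.782, 0.609 to 1.003), and day 7 over day 3 gave 1.16 (0.874 to 1.55). Tnfrsf14 encodes a further receptor of this branch, the herpesvirus entry mediator, which binds the ligand LIGHT from Tnfsf14. Tnfrsf14 had 4, 10 and 12 reads in heart and 38, 53 and 53 in adhesion tissue, and Tnfsf14 had 0, 1 and 0 and 21, 11 and 6. The receptor was 1.56-fold higher at day 3 than at day 1 in adhesion tissue (1.01 to 2.43), an interval that included 1 on CPM (1.54, 0.9996 to 2.41). The ligand was 3.52-fold lower at day 7 (1.37 to 10.7). Day 7 over day 3 gave 0.890 (0.597 to 1.33) for the receptor and 0.486 (0.147 to 1.43) for the ligand. Tnfrsf19, best known from the skin and nervous system, had 5, 6 and 7 reads in heart, and 6, 2 and 12 reads were counted in adhesion tissue, where day 7 was 5.34-fold above day 3 (1.19 to 49.1).

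The members that stayed under 10 reads in every library were 9 ligands (Cd40lg, Cd70, Fasl, Lta, Tnfsf13, Tnfsf15, Tnfsf18, Tnfsf4 and Tnfsf8) and 4 receptors (Tnfrsf17, Tnfrsf25, Tnfrsf4 and Tnfrsf8). Most belong to T cell costimulation. The highest single value among them was 9 reads, for Tnfsf13 in adhesion tissue at day 7. Tnfsf13 encodes APRIL, a survival factor of plasma cells, and shares 74.7% of its exon bases with the read-through transcript named above. Cd40lg and Tnfsf4 had 1 read each in all 6 libraries together. Differences of these genes were not detectable at this depth.

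On the same day, adhesion tissue was compared with heart in CPM, since each tissue had been scaled on its own. Tnfrsf1b was 5.94-fold higher in adhesion tissue at day 3 (4.91 to 7.24) and 5.32-fold higher at day 7 (4.51 to 6.30). Tnfrsf1a was 2.27-fold (1.86 to 2.77) and 1.97-fold higher (1.60 to 2.44). Tnfrsf14 was 5.94-fold (2.99 to 13.1) and 4.35-fold higher (2.30 to 8.95), and Tnfrsf26 12.3-fold (3.87 to 62.8) and 5.82-fold higher (3.05 to 12.2). Tnfrsf11a was 1.77-fold higher at day 3 (1.23 to 2.55) and 4.48-fold higher at day 7 (3.02 to 6.85). Tnfsf12 was 4.88-fold (2.70 to 9.45) and 3.54-fold higher (2.18 to 5.96). Among members that reached 10 reads, the intervals included 1 on both days for Cd27, Tnfrsf10b, Tnfrsf12a, Tnfrsf18, Tnfrsf19, Tnfrsf22 and the ligand Tnfsf13b. Macrophage markers were also higher in adhesion tissue than in heart on both days, and their part in these ratios was not tested.

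**Figure D5:**
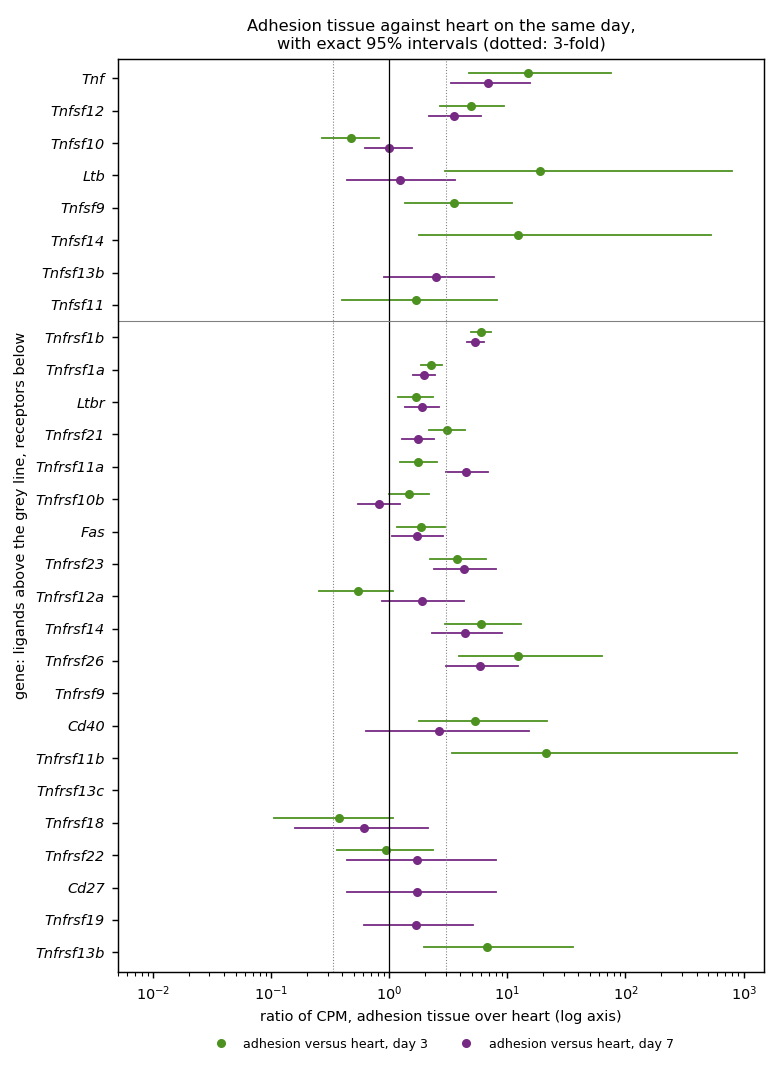
Ratio of CPM in adhesion tissue to CPM in heart (horizontal log axis) at day 3 (green) and day 7 (purple) for 8 ligands and 20 receptors (rows), with exact 95% intervals and dotted lines at 3-fold; ratios from fewer than 10 reads in all, or with a library at 0, are left out. Tnfrsf1b lies between 5 and 6 on both days, and Tnfsf10 lies left of 1 at day 3.

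The genes downstream of the receptors were read from lists of the pathway. Among 25 adaptors and kinases of TNF receptors, all were read, and 1 was called higher in heart at day 3, against 6.66% of all genes. It was Map3k14, the NF-kB-inducing kinase of the lymphotoxin and TWEAK receptors (11 and 44 reads, 3.35-fold, 1.70 to 7.20). The count is not read as a result about the list. In the other 3 comparisons none was called. Among 12 NF-kB subunits and inhibitors, 3 passed 3-fold upward in each heart comparison, with intervals that excluded 1, against 3.31% and 3.17% of all genes at days 3 and 7. Bcl3 had 5, 42 and 14 reads in heart and was 7.04-fold higher at day 3 (2.79 to 22.8), and Tnfaip3, the inhibitor A20, had 13, 31 and 53 reads and was 3.53-fold higher at day 7 (1.90 to 7.06). In adhesion tissue none of the 12 was called, and the medians of the log2 ratio were -0.54 and -0.68 at days 3 and 7, against -0.10 and -0.05 over all genes. Nfkbia, which encodes the inhibitor of NF-kB that NF-kB itself induces, had 863, 402 and 411 reads there and was 1.92-fold (1.71 to 2.17) and 2.11-fold lower (1.88 to 2.38).

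Of 25 genes that TNF is known to induce, some of which also stand in the other lists, the heart comparisons had 10 of 24 (day 3) and 7 of 22 (day 7) called higher, with none lower, against 6.66% and 6.84% of all genes higher. In adhesion tissue 6 of 24 were called lower at day 3 and 8 of 24 at day 7, with none higher, against 6.7% and 4.88% of all genes lower. Cxcl5, a chemokine that draws neutrophils, had 0, 97 and 17 reads in heart. It was 27.1-fold higher at day 3 with day 0 set to 3 reads, and its exact interval began at 21.6. Ccl2, a chemokine for monocytes, had 938, 168 and 32 reads in adhesion tissue with a ratio to day 1 of 0.200 at day 3 (0.169 to 0.236), and was 29.5-fold lower at day 7 (20.7 to 43.4). Il6 had 53, 13 and 1 reads there, with a ratio of day 1 to day 7 of 53.3 (9.17 to 2146). Many genes of the list also answer to other cytokines. Without the day 1 library, at day 7 against day 3, 4 of 23 were called lower and 1 higher in adhesion tissue. In heart, 5 of 24 were called lower and 0 higher at day 7 against day 3. No share over all genes was computed for day 7 against day 3, so these counts are not read as a result about the list.

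Of 16 genes of the death receptor pathway, 1 was called higher in each heart comparison, against 6.66% and 6.84% of all genes at days 3 and 7. In adhesion tissue 2 were called lower at day 3, against 6.7% of all genes, and 1 higher at day 7, against 5.13%. Those lower were Cycs, which encodes cytochrome c, with 324 and 78 reads, and Diablo with 80 and 21. Skeletal muscle and cardiomyocyte markers were also lower at day 3 than at day 1, and their part in the level of Cycs was not tested. Of 7 genes for shedding of ligands and receptors none was called. Adam17, the enzyme that frees TNF from the membrane, had 280, 360 and 436 reads in adhesion tissue and was 1.44-fold (1.22 to 1.68) and 1.55-fold higher (1.33 to 1.80), the opposite direction from Tnf. Among 5 members of the family with other names (Eda, Eda2r, Edar, Ngfr and Relt), Ngfr, a receptor of nerve growth factor, had 1, 21 and 8 reads in heart (17.6-fold at day 3, 2.83 to 728), and Relt, a receptor of leukocytes, had 57, 33 and 24 reads in adhesion tissue (2.39-fold lower at day 7, 1.46 to 4.03).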

How the data were processed

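The authors deposited 1 table per tissue with a signal per gene and library, read counts over annotated exons multiplied by 1 factor per library. The labels name TopHat, Cufflinks, edgeR and mm10 without versions; the counting tool and its strand setting were not given in the sources used here. Dividing each value by what 1 read is worth gave whole numbers within 0.1 read for 100% of values, so reads were recovered. The deposited statistic, rank and q-value columns over the 3 libraries of a tissue were not used; the deposited exon length served for RPKM.

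Later libraries were divided by the first of their tissue on the deposited scale, with exact conditional binomial 95% intervals (SciPy 1.17.1). Genes above 3-fold with a pseudocount of 1 were counted without a filter. Alternatives were pseudocounts of 0.5 and 5, a 10-read filter, CPM, CPM without Rn45s, edgeR 4.0.16 TMM and DESeq2 1.42.0 size factors of the recovered reads, a 2-fold threshold and the interval. Every member may be named, in full from 10 reads upward; from each other list up to 3 genes per comparison were eligible by the interval bound nearest to 1, from 20 reads. Members and lists were chosen with earlier results of these data known. The intervals were tested on data simulated with Poisson counting error only, the error they assume. That test cannot speak to PCR copies or to differences between animals. Some genes of the lists are not reported here.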

Additional observations from a re-analysis of the deposited data

Results flagged for a closer look

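The ratios of Tnfrsf1a lay on opposite sides of 1 in the tissues, although with TMM scaling the adhesion interval of day 3 included 1 (ratio 0.876, 0.754 to 1.02). In adhesion tissue its ratio to day 1 was 0.818 at day 3 (0.704 to 0.949) and 0.639 at day 7 (0.547 to 0.746), whereas in heart its ratio to day 0 was 1.89 at day 3 (1.41 to 2.55) and 1.73 at day 7 (1.29 to 2.35). Tnf did the same at day 7, with a ratio of 0.422 in adhesion tissue (0.308 to 0.572) and an interval that began at 1.71 in heart, from 0 and 9 reads. The reference is day 0 in heart and day 1 in adhesion tissue, each tissue has 1 library per day, and the difference between the tissues was not tested.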

How the results depend on the processing

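Limits: no replicates, so intervals hold counting error only; the first library differs in day between the tissues; the day 1 adhesion library decides most ratios there; members under 10 reads carry little information. No paired analysis was possible because each group held 1 library.

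Ratios of single members, 95 on each scale, were recomputed on CPM, CPM without Rn45s, TMM and DESeq2 size factors. They were also recomputed on CPM without Rn45s and muscle genes, a scale chosen after seeing the data. All 475 recomputed ratios stayed inside their interval. A scale moves all ratios of a comparison by 1 factor, at most 0.188 in log2. That is small beside most counting intervals, so this outcome says little about how far the ratios can be trusted. Intervals that excluded 1 came to include it for Tnfrsf1a at day 3 (0.876) and Ltbr at day 7 (0.782) with TMM, for Tnfrsf14 at day 3 on CPM (1.54), all in adhesion tissue, and for its summed ligands at day 7 with TMM (0.855, 0.723 to 1.01). Intervals came to exclude 1 for Ltb in heart at day 7 (ratios from 7.51) and for the summed ligands of heart at day 3 (ratios from 1.48) on CPM, CPM without Rn45s and without muscle genes. CPM raised all heart log2 ratios by 0.175 at day 3 and 0.121 at day 7. The summed receptor ratio of adhesion tissue at day 3 went from 0.974 to 1.04 with TMM (0.977 to 1.11).

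Counts of members depended more on the settings, and smaller moves of the higher counts in heart are left out. For heart at day 3, the 11 members called higher became 3 with a pseudocount of 5, 4 with 10 reads, 6 on CPM, on CPM without Rn45s, with TMM and without muscle genes, and 4 with the interval, all among the 11; the 0 lower became 3 with a pseudocount of 0.5 and 4 at 2-fold. For heart at day 7, the 8 higher became 1 with a pseudocount of 5, 2 with 10 reads, 3 with the interval and 13 at 2-fold; the 1 lower became 6 with a pseudocount of 0.5, 7 at 2-fold, and 0 with a pseudocount of 5, 10 reads, CPM, CPM without Rn45s, TMM, DESeq2 size factors, the interval and without muscle genes. For adhesion tissue at day 3, the 2 higher became 1 with a pseudocount of 5 and 4 at 2-fold, and the 2 lower became 5 with a pseudocount of 0.5, 1 with TMM and 8 at 2-fold; the call lost with TMM was that of Tnf (ratio 0.327). At day 7, the 3 higher became 2 with 10 reads and 4 at 2-fold. They became 1 with a pseudocount of 5, on CPM, on CPM without Rn45s, with TMM, with the interval and without muscle genes. The 8 lower became 10 with a pseudocount of 0.5, 4 with a pseudocount of 5 and 12 at 2-fold. They became 6 with 10 reads, on CPM, with TMM and with the interval, and 7 on CPM without Rn45s and without muscle genes. Against day 3 (chosen after seeing the data), 3 were lower and 2 were higher, none of the 2 among the 3 higher against day 1. No share over all genes was computed against day 3. The causes were not tested.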

Other observations

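Ratios between genes within a library do not depend on how libraries are scaled. These pairs were picked after their values had been seen. Per exon length, the ratio of Tnfrsf1b to Tnfrsf1a was 0.200 (0.126 to 0.310), 0.367 (0.288 to 0.467) and 0.548 (0.435 to 0.692) in heart at days 0, 3 and 7. In adhesion tissue it was 0.639 (0.564 to 0.725), 0.961 (0.839 to 1.10) and 1.48 (1.29 to 1.70) at days 1, 3 and 7. The ratio was thus higher at each later day in both tissues, although in heart the intervals of neighbouring days overlapped and only those of days 0 and 7 lay apart. For TWEAK and its receptor, the ratio of Tnfsf12 to Tnfrsf12a in adhesion tissue was 0.0959 (0.0527 to 0.164) at day 1, 2.67 (1.45 to 5.30) at day 3 and 2.14 (1.31 to 3.65) at day 7. In heart it was 0.570 (0.291 to 1.12), 0.295 (0.143 to 0.583) and 1.14 (0.529 to 2.60), with overlapping intervals at days 0 and 7.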
